A study of Sus scrofa with 24 samples.

Results

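Adult longissimus dorsi muscle of Pietrain pigs was compared with the same muscle of Pietrain fetuses at 91 days post conception (dpc). The comparison used 6 of the 24 arrays of the series, the 3 adult Pietrain pools and the 3 Pietrain pools at 91 dpc, which were chosen by breed and stage from the sample titles. The series covers Pietrain (Pi) and German Landrace (DL), a second breed, at 35, 63 and 91 dpc and in adulthood, with pools a, b and c in each of its 8 groups. Each pool of total RNA was hybridised to a short-oligonucleotide microarray of the pig transcriptome. The labels name no treatment and no genotype other than breed for any group. They call the tissue skeletal muscle, and a free-text field calls the fetal animals peripubertal, which their stage contradicts. How many animals made up a pool, which sex they were and how old the adults were could not be learned from the sources. Nothing says whether pools came from separate animals, so a p-value measures only the spread between pools, which may be technical.

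Pietrain is a heavily muscled meat breed. Late in gestation most muscle fibres of the pig have formed, and growth to adulthood comes mainly from enlarging them, with satellite cells adding nuclei. Contractile proteins have developmental and adult isoforms that are often encoded by separate genes, and the fuels and enzymes of muscle change after birth as glucose from the placenta gives way to dietary fat, stored glycogen and voluntary activity.

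The values are log2 intensities per probe set, between 1.60 and 16.10 over the whole table. A log2 change is the adult mean minus the 91 dpc mean, given with its standard error, and a change is always relative to the rest of the array. A probe set passed when limma's adjusted p (Benjamini-Hochberg over all 23999 probe sets) was below 0.05, and only such probe sets are said to have risen or fallen. A pool was above background when its value exceeded the highest of 23 control probe sets with no spiked target, which lay between 2.35 and 2.69 on these 6 arrays. The adult pools varied more than the fetal pools, with a median SD per probe set of 0.29 against 0.20, and correlated across probe sets at 0.926 to 0.942 against 0.980 to 0.984. Several RNA controls moved with stage, though not all in 1 direction. The 3'-minus-5' difference of GAPDH ran from 0.84 to 1.31 at 91 dpc and from -0.61 to -0.55 in adults, the mean of the 3' poly-A spike-in controls went from 8.55 ± 0.05 to 10.40 ± 0.34 (SD, n = 3), and the 18S rRNA control from 10.76 ± 0.25 to 12.84 ± 0.11 (exact two-sided permutation p = 0.1 for each, the smallest that 3 against 3 pools allow). With the GAPDH difference as a covariate 0 of the 23999 probe sets passed in limma, and 2098 had an unadjusted p under 0.05, so stage and this RNA measure cannot be told apart.

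Adult pools b and c each stood apart in their own way. Pool c differed 2-fold from both other adult pools in more probe sets than pool b did, with 1599 above and 1305 below against 1246 and 884, and pool a had 1190 and 850. At 8-fold pool c had 227 above and 212 below, and pool b 243 above and 78 below. With all 6 arrays 8642 probe sets passed in limma, and 8071 without pool c. Among the adult Pietrain pools, pool b carried most of the liver signal. All 18 measured hepatocyte marker genes were above background there, at a mean log2 intensity of 11.31, while the mean was 3.08 in adult pool a, 3.56 in adult pool c and 2.96 to 3.20 at 91 dpc. ALB, serum albumin, read 2.19, 14.54 and 6.02 in adult pools a, b and c, so pool c also carried a signal. TF, transferrin, read 2.13, 13.15 and 2.14, and VTN, vitronectin, 2.19, 12.32 and 2.19. The 12 probe sets with 1 gene symbol that lay furthest above both other adult pools in pool b were all plasma protein or drug-metabolism genes of the liver: TF, VTN, FGB, HPX, RBP4, AMBP, HRG, CYP2C33, FGG, ALB, TTR and CYP2C49. None of the 18 markers passed in limma with all 6 arrays. Their median log2 change went from 3.06 with pool b to 0.05 without it. In limma without pool b, FGG rose on its brightest probe set (2.12, adjusted p = 0.0182), and VTN (-1.44, adjusted p = 0.00209) and APOA1 fell. The FGG probe set among the 12 above is a different one. It read 2.19 and 2.21 in adult pools a and c and changed by -0.01 without pool b, so the gene's probe sets disagree. Without adult pool a 1 marker rose. APOA1, an apolipoprotein, read 11.71, 11.90 and 11.84 at 91 dpc against 8.84, 11.26 and 9.61 in adults, a change of -1.91 that did not pass on the 6 arrays (limma adjusted p = 0.075). It fell without pool b (-2.59, adjusted p = 0.00545) and also in the fit of all 24 arrays with pool b kept (adjusted p = 0.000414). Liver markers also rose over the same step in German Landrace, in limma fitted to that breed's adult and 91 dpc arrays. ALB, APOC3, HP and FGB rose there by 6.17, 5.45, 4.51 and 3.30 (adjusted p = 0.00199, 0.00363, 0.0119 and 0.0256). APOA1 fell there (-2.66, adjusted p = 0.000482), and the other markers did not pass. A few genes were low in Pietrain adult pool b alone, among them SOCS3, an inhibitor of cytokine signalling, at 6.59, 2.14 and 6.04, and DLL4, a Notch ligand of vessels, at 6.58, 2.61 and 6.61. Values without adult pool b are given below where leaving it out changed the call of a gene named here or moved a list's count of rising or falling members by over 1.5 times; smaller moves of list counts are not all given.

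**Figure D1:**
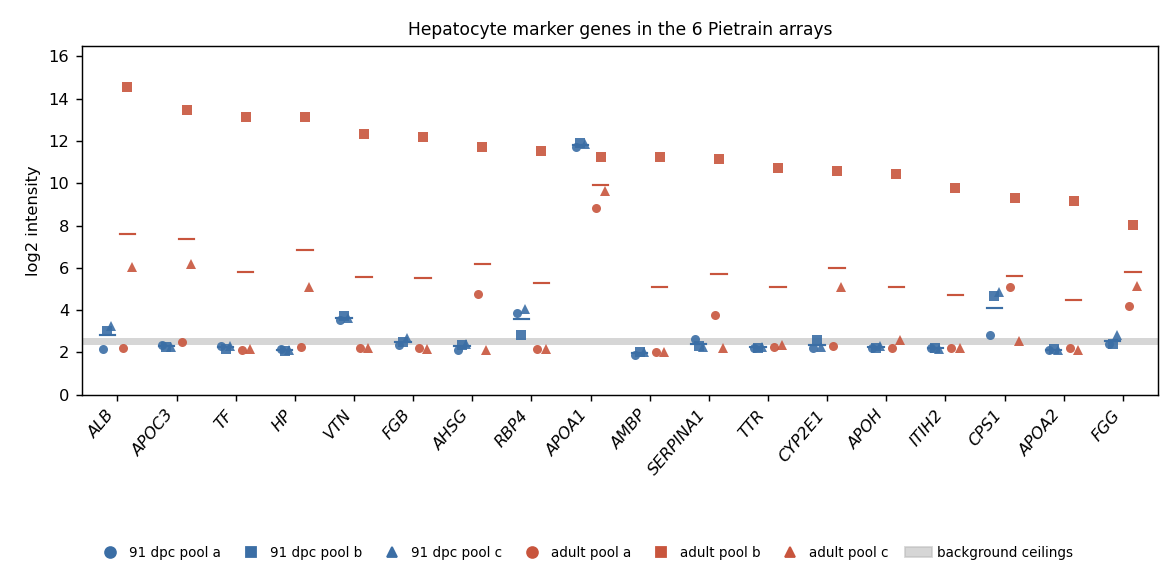
Log2 intensity of the 18 hepatocyte marker genes in each Pietrain pool (blue 91 dpc, red adult; shapes mark pools a, b and c; bars mark group means; the grey band spans the background ceilings of the 6 arrays). Adult pool b reads between 8.01 and 14.54 for every gene, while most other values sit near the band, and APOA1 is high at 91 dpc as well.

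The adult pools also read low for EIF1AY, a translation initiation factor gene of the Y chromosome. Its values were 2.49, 3.41 and 2.95 in the adult Pietrain pools and 8.77, 9.01 and 7.66 at 91 dpc. In the other 21 pools of the series, those at 91 dpc included, it lay between 7.18 and 9.21. All 3 adult Pietrain pools were thus below every other pool, and the part of sex in the differences below was not tested, since the sources do not give the sex of the pools.

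Over all members, 8642 of 23999 probe sets passed (36%), of which 4335 were higher (18.1%) and 4307 lower (17.9%) in the adult pools. The pools of the 2 stages did not overlap in 13196 probe sets (55%), and in 62.6% of genes. Without adult pool b 8300 passed (34.6%; 17.7% higher and 16.8% lower), and 7332 passed both ways, all in the same direction. With 1 probe set a gene, the brightest, 3076 of 6765 genes passed (45.5%); 24.5% of the 6765 rose and 21% fell. These are the shares against which each gene group below is read. Changes of at least 16-fold among passing probe sets numbered 313 upward and 484 downward. The median log2 change was 0.05 over all probe sets and 0.07 over genes. Scaling each array to its 3' poly-A spike-in controls shifted every change by -1.85, after which 817 probe sets passed as higher and 17728 as lower, so a rise smaller than 1.85 would be a fall on that scale. Scaling to the hybridisation controls shifted them by -0.15, with 3539 higher and 4626 lower.

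**Figure D2:**
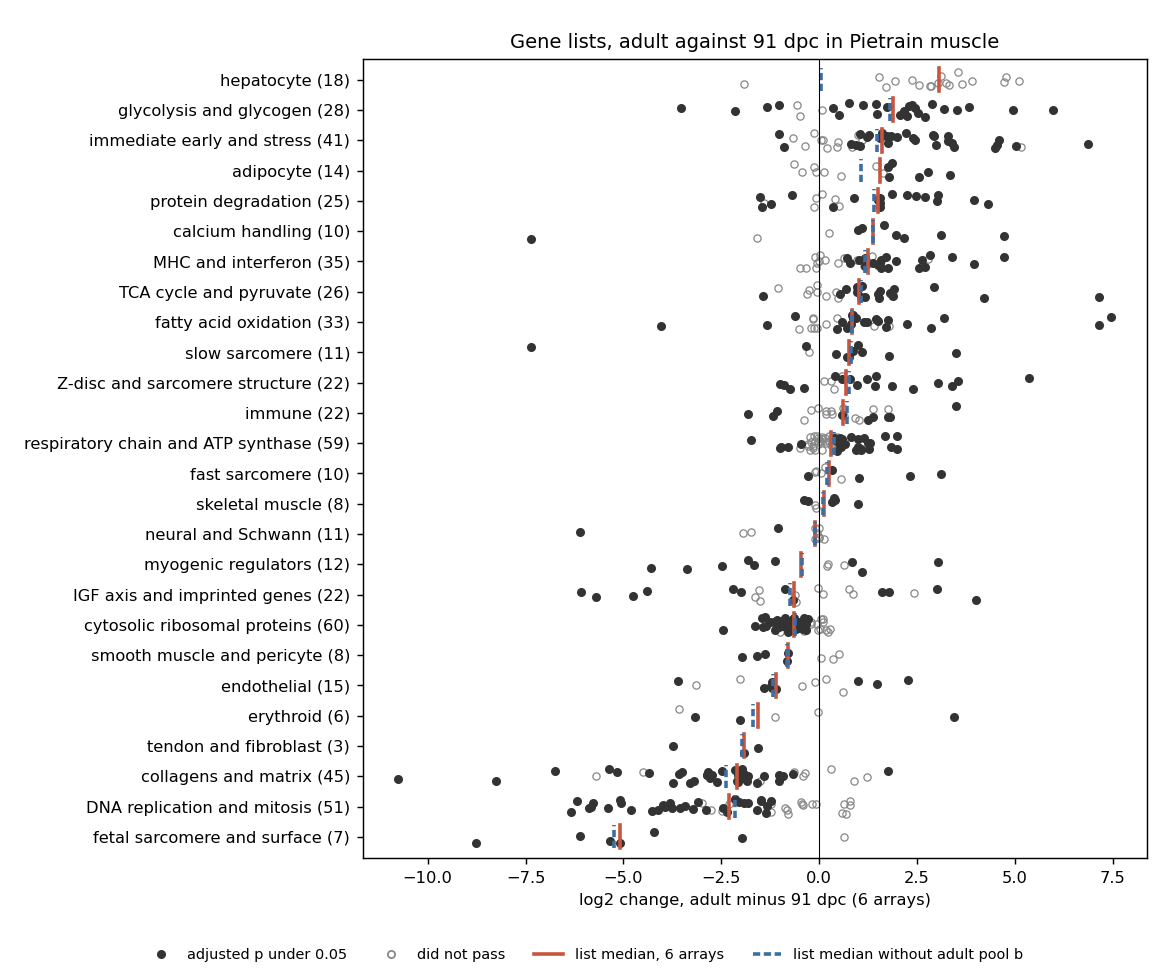
Log2 change from 91 dpc to adult for each measured gene of 26 lists (filled points passed at an adjusted p under 0.05, open points did not; vertical jitter only separates points), with the number of measured genes in parentheses. The red bar is the list median over 6 arrays and the dashed blue bar the median without adult pool b. The hepatocyte median moves from 3.06 to 0.05, and the next largest move is that of the adipocyte list, from 1.54 to 1.06.

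The list of the fetal sarcomere and fibre surface had the lowest median of all lists. Of its 7 measured genes 6 fell and 0 rose, with a median log2 change of -5.09 (-5.25 without pool b). Its members MYH3, MYH8, CHRNG, MYBPH and DUSP27 had no probe set, so the developmental myosin heavy chains among them were not compared. MYL4, the embryonic and atrial myosin light chain, read 13.74, 13.33 and 13.47 at 91 dpc and 6.14, 3.35 and 4.76 in adults. That is a change of -8.76 ± 0.73 (limma adjusted p = 0.000949), and the lowest adult value was in pool b. ACTC1, cardiac alpha-actin, which fetal skeletal muscle also makes, went from 15.53, 15.36 and 15.26 to 10.77, 9.84 and 9.49. It was still far above background in every adult pool. TNNT2, cardiac troponin T, fell from 12.26, 12.46 and 12.27 to 8.49, 8.69 and 7.13. CHRNA1, the alpha subunit of the acetylcholine receptor, fell by 5.09 ± 0.57. NCAM1, an adhesion molecule that innervated adult fibres largely lose, was above background in all 3 fetal pools at 8.18, 8.63 and 8.19 and in no adult pool, and was at least 54.5-fold lower (limma adjusted p = 6.36e-05). ACTA2, smooth-muscle alpha-actin, which developing fibres share with vessel walls, fell by 1.98 ± 0.14. The exception was CKB, the brain-type creatine kinase, which read 7.18, 6.85 and 7.04 and then 7.96, 7.38 and 7.64 and missed the threshold (0.64 ± 0.18, adjusted p = 0.0501), passing without pool b (0.78, adjusted p = 0.0318). CKB had stood at means of 11.02 and 11.64 at 35 and 63 dpc, so it was already lower at 91 dpc.

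A probe set annotated LOC396711 behaved like this group. It read 15.09, 14.93 and 15.08 at 91 dpc and 8.84, 7.15 and 6.26 in adults, a change of -7.62 ± 0.68 (limma adjusted p = 0.00116). In RefSeq's Sscrofa11.1 annotation the gene lies on chromosome 12 next to MYH2, MYH1 and MYH4, in the cluster of skeletal myosin heavy chains. No probe set carried the symbol ACTA1, so the skeletal alpha-actin was not compared.

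**Figure D3:**
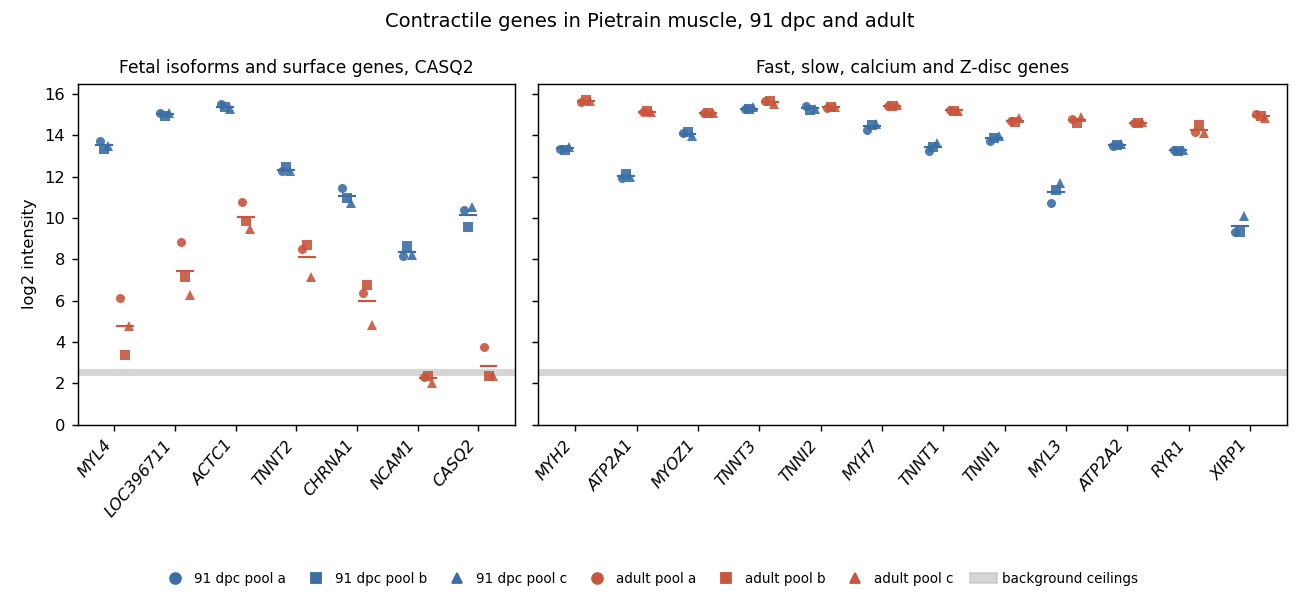
Log2 intensity of contractile and calcium-handling genes in each Pietrain pool (blue 91 dpc, red adult; shapes mark pools; bars mark group means; the grey band spans the background ceilings). The genes at left drop by several log2 units, with adult values spread over pools. Those at right converge on adult values between 14.13 and 15.72 with little spread, near the top of the table's range, which reached 16.10.

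Of 11 slow sarcomere genes 8 rose and 2 fell (median 0.77). Those that fell were CASQ2, described below, and MYBPC1 (-0.35 ± 0.09, limma adjusted p = 0.0356, and 0.08 without adult pool b). Fast genes were mixed, with 4 of 10 rising, 1 falling and 5 not passing (median 0.24). Their passing share of 50% lies near the 45.5% of all genes. The fast genes MYH1, MYH4, CASQ1, ACTN3, MYBPC2, MYLK2 and PVALB had no probe set. Neither had the slow genes MYH7B, MYL6B, MYOZ2, CSRP3 and ANKRD2. MYH2, the fast IIa myosin heavy chain, read 13.36, 13.31 and 13.44 at 91 dpc and 15.63, 15.72 and 15.68 in adults (2.31 ± 0.08, limma adjusted p = 8.83e-05). MYH7, its slow counterpart, went from 14.28, 14.49 and 14.54 to 15.41, 15.40 and 15.45 (0.99 ± 0.10). In both the adult pools lay closer together than the size of the change, and near the top of the table's range. MYL3, the slow and ventricular essential light chain, rose by 3.50 ± 0.28, and TNNT1, slow troponin T, by 1.78 ± 0.12. TNNI1, slow troponin I, rose by 0.85 ± 0.10, while its fast partner TNNI2 read 15.40, 15.24 and 15.30 and then 15.34, 15.39 and 15.36 (0.05 ± 0.08, adjusted p = 0.69). TNNI2 and TNNT3, fast troponin T (0.32 ± 0.08, adjusted p = 0.0366), already lay near the top of the table's range at 91 dpc. So did the fast-list genes MYL1, MYLPF, TNNC2 and TPM1, at means of 15.53, 15.81, 15.85 and 15.31. TNNT3 missed the threshold without any 1 pool except adult pool c (adjusted p = 0.0799 without adult pool b, 0.0876 without adult pool a, and 0.113, 0.102 and 0.0687 without 91 dpc pools a, b and c). The 1 fast gene that fell, TNNC2, changed by -0.28 (adjusted p = 0.0354; 0.0711 without adult pool b). No fast gene fell in any of the 6-array fits that left out 1 pool, while TNNC2 passed in the fit of all 24 arrays (adjusted p = 0.000452), and 2 fast genes fell in that fit without adult pool b. MYOZ1, calsarcin of the fast-fibre Z-disc, rose by 1.02 ± 0.08. Without 91 dpc pool a or c, or adult pool a or b, 1 slow gene fell.

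Skeletal muscle markers were high at both stages. Their mean log2 intensity over 8 genes lay between 15.07 and 15.29 in all 6 pools, and the median change was 0.12, which became -0.03 with scaling to the hybridisation controls. CKM, the muscle creatine kinase, changed by 0.38 ± 0.09 (limma adjusted p = 0.0312; 0.0656 without adult pool b) and TTN, titin, by 0.39 ± 0.09 (0.0473 without adult pool b). DES, desmin, changed by -0.39 ± 0.08 on its brightest probe set and by 0.28 as a mean over its probe sets, so its direction is unsettled. With all arrays 4 markers rose and 2 fell. Leaving out any 1 pool left 0 or 1 that fell, and 1 rose without 91 dpc pool a and 2 without 91 dpc pool b, 91 dpc pool c, adult pool a or adult pool b. CKM, TTN and TNNT3 missed the threshold with scaling to the hybridisation controls (adjusted p = 0.429, 0.323 and 0.561).

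The Z-disc and the sarcomere's scaffold rose more clearly, with 13 of 22 genes up and 4 down (median 0.69, or 0.75 without pool b). XIRP1, an actin-binding repeat protein of adhesion sites, went from 9.33, 9.34 and 10.11 to 15.05, 14.94 and 14.84, the largest rise of the group at 5.35 ± 0.25 (limma adjusted p = 0.000194). PDLIM3, a Z-disc PDZ-LIM protein, rose by 3.55 ± 0.19. TMOD4, the tropomodulin that caps thin filaments, rose by 3.40 ± 0.09, and HSPB7, a small heat shock protein of muscle, by 3.03 ± 0.22. The other 3 members that fell beside DES were SMPX (-1.01 ± 0.08), LMOD3, a nucleator of thin filaments (-0.90 ± 0.19; adjusted p = 0.0519 without pool b), and KLHL41, a kelch protein of the sarcomere (-0.74 ± 0.13).

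Calcium handling rose in 7 of 10 genes and fell in 1 (median 1.38 with and without pool b). ATP2A1, the calcium pump of fast fibres, read 11.93, 12.15 and 11.99 and then 15.14, 15.16 and 15.13 (3.12 ± 0.09, limma adjusted p = 6.29e-05). ATP2A2, the pump of slow fibres, rose by 1.09 ± 0.07 on its brightest probe set, but its dimmer probe sets disagree: 1 rose by 4.97 ± 0.61, 1 fell by 0.70 ± 0.12, and 1 changed by -0.80 ± 0.24 without passing (adjusted p = 0.0558). RYR1, the calcium release channel, rose by 0.99 ± 0.13. CASQ2, the calsequestrin of heart and slow fibres, went the other way, from 10.37, 9.58 and 10.54 to 3.75, 2.36 and 2.33, a change of -7.35 ± 0.50 with only adult pool a above background. RYR3, the release channel prominent in developing muscle, changed by -1.59 and did not pass with all arrays (adjusted p = 0.0882). Without pool b it fell (-2.07, adjusted p = 0.0333), which made 2 genes of the list that fell.

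MRLN, myoregulin, a small peptide that inhibits the calcium pump, showed a different course. It read 3.17, 2.98 and 4.05 at 91 dpc and 8.16, 8.08 and 8.14 in adults (4.73 ± 0.30, limma adjusted p = 0.000439). The Pietrain means at 35 and 63 dpc were 8.35 and 8.19. The adult level thus lay close to that of the younger fetuses, with 91 dpc low between them, and German Landrace changed over the same step by 6.19.

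Glucose metabolism rose in most of its genes. Of 28 glycolysis and glycogen genes 21 rose and 4 fell, with a median of 1.89 (1.80 without pool b). SLC2A4, the insulin-responsive glucose transporter GLUT4, was at background in all 3 fetal pools (1.94, 2.01 and 2.03) and read 7.93, 7.36 and 8.61 in adults, at least 48.7-fold higher (limma adjusted p = 0.000301). FBP2, the muscle fructose bisphosphatase, rose from 8.04, 8.37 and 7.24 to 12.74, 12.89 and 12.86. GPD1, the glycerol phosphate dehydrogenase, rose by 3.82 ± 0.09, PFKM, muscle phosphofructokinase, by 3.52 ± 0.14 and PYGM, muscle glycogen phosphorylase, by 2.44 ± 0.07. PYGL, the liver phosphorylase, and ALDOC, the brain aldolase, rose as well, by 2.70 ± 0.21 and 2.06 ± 0.20. Of the 4 members that fell, PFKP, platelet phosphofructokinase, changed by -3.52 ± 0.68 with 2 of 3 adult pools above background, and PFKL, the liver form, by -2.15 ± 0.44. LDHB, the heart-type lactate dehydrogenase, fell by 1.34 ± 0.11, and HK1, the widely expressed hexokinase, by 1.03 ± 0.21. Without 91 dpc pool a 2 members fell and without 91 dpc pool c 1.

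Genes of fatty acid use rose in most cases too. Of 33 genes of fatty acid oxidation 19 rose and 3 fell (median 0.83 with and without pool b). PDK4, the kinase that shuts off pyruvate oxidation, read 6.78, 7.02 and 6.86 at 91 dpc and 14.34, 14.09 and 13.69 in adults. The change of 7.15 ± 0.19 is a 142-fold difference (limma adjusted p = 5.78e-05). UCP3, the mitochondrial carrier of muscle that is induced by fatty acids, went from 3.27, 2.41 and 2.88 to 9.88, 10.92 and 10.11 (7.45 ± 0.36). UCP2, its relative in many cell types, went the opposite way, from 8.14, 7.35 and 8.25 to 2.38, 4.22 and 5.07 (-4.03 ± 0.75, adjusted p = 0.0124; 0.05 without 91 dpc pool a). SLC27A1, a fatty acid transporter, rose by 3.18 ± 0.62 (adjusted p = 0.0514 without 91 dpc pool b), PPARGC1A, a coactivator of mitochondrial genes, by 2.24 ± 0.20 and FABP3, the muscle fatty acid binding protein, by 0.93 ± 0.13. Besides UCP2, ACADL, the long-chain acyl-CoA dehydrogenase, fell by 1.33 ± 0.13 and DECR1, an enzyme for unsaturated fatty acids, by 0.62 ± 0.14.

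In the citric acid cycle and pyruvate group 16 of 26 genes rose and 1 fell (median 1.02). PDK3, another pyruvate dehydrogenase kinase, went from 4.78, 5.43 and 5.35 to 9.61, 9.25 and 9.31 (4.20 ± 0.22), and PDHA1, a subunit of the enzyme these kinases inhibit, rose by 1.90 ± 0.16. PC, pyruvate carboxylase, rose by 2.93 ± 0.22. ACO1, the cytosolic aconitase, fell by 1.43 ± 0.17, and without adult pool a or b 2 members fell. The respiratory chain had the lowest median of the metabolic lists. Of 59 genes 23 rose and 5 fell, with a median of 0.29. Their passing share of 47.5% lies near the 45.5% of all genes. The count that rose was 13 with scaling to the hybridisation controls and 14 without 91 dpc pool a. NDUFS1 and NDUFS6, subunits of complex I, rose by 1.99 ± 0.10 and 1.98 ± 0.16 and SDHC, of complex II, by 1.82 ± 0.10. COX6A1, the cytochrome oxidase subunit of non-muscle tissues, fell from 11.75, 11.52 and 11.74 to 9.85, 9.99 and 9.94 (-1.75 ± 0.10). Without 91 dpc pool a, 91 dpc pool c or adult pool b 3 members fell.

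Genes of dividing cells fell and none rose. Of 51 genes of DNA replication and mitosis 32 fell (median -2.30); without pool b 29 fell and 2 rose. MCM2, a subunit of the replicative helicase, read 8.73, 8.01 and 8.41 at 91 dpc and was at background in every adult pool, at least 56.5-fold lower (limma adjusted p = 6.77e-05). CCNB1, the mitotic cyclin B1, was at least 45-fold lower and UBE2C, a ubiquitin-conjugating enzyme of mitotic exit, at least 51.4-fold lower on its brightest probe set. A second UBE2C probe set was at background in all fetal pools and read 5.01, 4.67 and 6.35 in adults, so the gene's probe sets disagree. TOP2A, topoisomerase II alpha, went from 9.73, 9.44 and 9.43 to 3.81, 2.66 and 3.55, weak but above background in all adult pools. In such bulk tissue fewer cells of a type and less RNA per cell cannot be told apart, which holds for every cell type below as well.

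Genes of the extracellular matrix fell, with 35 of 45 genes down and 1 up (median -2.11, or -2.37 without pool b). POSTN, periostin, a matrix protein of growing connective tissue, had the largest fall among all named genes, from 13.93, 14.08 and 13.54 to 2.68, 4.35 and 2.27. The change was -10.75 ± 0.59 (limma adjusted p = 0.000293), and only adult pool b, at 4.35, was above background. ASPN, asporin, read 13.11, 13.14 and 12.87 and then 5.81, 6.27 and 2.25, and VCAN, the proteoglycan versican, between 10.37 and 10.81 and then between 2.16 and 5.50. In both the adult pool at background was pool c. MFAP2, a microfibril protein, fell by 5.38 ± 0.27. The fibroblast markers LUM, DCN and THY1 fell by 3.74 ± 0.34, 1.91 ± 0.13 and 1.57 ± 0.13, which is all 3 measured markers of that list. COL8A1, a short-chain collagen, was the member that rose, from 2.35, 2.06 and 2.39 to 3.93, 3.94 and 4.20; without 91 dpc pool c 2 members rose. THY1 missed the threshold as a mean over its probe sets (-1.50, adjusted p = 0.0534).

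Cytosolic ribosomal protein genes fell by small amounts in most cases. Of 60 genes 46 fell and 0 rose, with a median of -0.65 (41 and -0.63 without pool b). RPL3 read 14.46, 14.47 and 14.55 and then 12.09, 12.07 and 11.93 (-2.46 ± 0.09, limma adjusted p = 8.83e-05), the largest fall of the list. RPL26 fell by 1.65 ± 0.25, RPL5 by 1.47 ± 0.09 and RPL17 by 1.44 ± 0.13. Ribosomal protein genes have many processed copies in mammalian genomes, so a probe set may also read related transcripts. For RPS12 the brightest probe set fell by 1.03 ± 0.08 and a dim one rose by 3.27 ± 0.42. Whether either reads related transcripts was not tested.

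Among regulators of myogenesis 3 of 12 rose and 6 fell. MYF5 and MYOD1, the determination factors expressed by myoblasts and satellite cells, fell from 9.04, 7.63 and 8.74 to 4.21, 4.23 and 4.08 (-4.29 ± 0.39) and from 10.22, 9.48 and 10.39 to 7.91, 6.78 and 7.96 (-2.48 ± 0.43). MYF6, the factor of that family that predominates in mature fibres, rose from 9.30, 8.78 and 9.25 to 12.47, 12.11 and 11.86 (3.04 ± 0.23, limma adjusted p = 0.0007). MSTN, myostatin, the growth inhibitor, changed by -3.39 ± 0.75 (adjusted p = 0.0212), and its adult pools differed widely at 4.23, 5.80 and 3.04. Its adjusted p was 0.00703 without adult pool b and 0.0555 to 0.0761 without 91 dpc pool b, 91 dpc pool a, 91 dpc pool c or adult pool a.

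The list of the IGF axis and imprinted genes was mixed, with 4 of 22 rising and 8 falling (median -0.65; 13 falling in the fit of all 24 arrays). MEG3, a noncoding RNA expressed from the maternal chromosome, went from 12.64, 12.50 and 12.49 to 5.72, 6.23 and 7.41 (-6.09 ± 0.45). PEG10, a retrotransposon-derived gene, fell by 5.70 ± 0.17 and PLAGL1, a zinc finger regulator of other imprinted genes, by 4.41 ± 0.15. PEG3, a zinc finger gene expressed from the paternal chromosome, changed by -4.75 (adjusted p = 0.0183) with adult values of 2.08, 5.35 and 5.47; its adjusted p was 0.0653, 0.0646 and 0.0571 without 91 dpc pools a, b and c, and 0.0843 as a mean over its probe sets. IGF2, the fetal growth factor, fell from 14.67, 14.70 and 14.72 to 12.60, 12.75 and 12.70 (-2.01 ± 0.08, limma adjusted p = 0.000125), and 1 of its dimmer probe sets rose by 3.70 ± 0.39. Against these, GRB10, an imprinted adaptor that dampens insulin signalling, rose 8-fold, and DIO3, the deiodinase that inactivates thyroid hormone, rose from 2.41, 2.10 and 2.20 to 5.49, 6.41 and 6.85. DIO3 and MEG3 lie in the same imprinted region in mammals and here moved in opposite directions. Without adult pool c 2 members of the list rose.

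Genes of protein breakdown rose in 15 of 25 cases and fell in 4 (median 1.49). With the mean over each gene's probe sets 2 fell. FBXO32, the muscle ubiquitin ligase atrogin-1, went from 8.38, 8.27 and 7.77 to 11.97, 12.17 and 12.11 (3.94 ± 0.19, limma adjusted p = 0.000212). FOXO3, a transcription factor that drives it, rose by 4.31 ± 0.38, FBXO31 by 3.02 ± 0.25, and CAPN3, the muscle calpain, rose 8.02-fold. CAST, the calpain inhibitor, was unsettled: its brightest probe set fell by 1.22 ± 0.12, another rose by 2.17 ± 0.48, and the mean over its probe sets changed by 0.28. The lysosomal proteases CTSK (-1.52 ± 0.22) and CTSB (-0.70) fell.

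The immediate early and stress list had 27 of 41 genes up and 2 down (median 1.61). NR4A3, an orphan nuclear receptor induced by exercise and stress, was at background in the fetal pools and read 8.49, 9.69 and 8.98 in adults, at least 103-fold higher (limma adjusted p = 0.000202). ATF3, a stress transcription factor, went from 6.68, 7.59 and 8.20 to 12.10, 12.80 and 12.65, and FOSL1, of the AP-1 family, was at least 21.7-fold higher. BTG2, an antiproliferative early gene, rose by 4.53 ± 0.35. HSPA6, a stress-induced heat shock protein that is not in the list but was among the largest rises of all genes, read 2.41, 3.92 and 4.12 and then 11.83, 8.41 and 10.44. Its adult pools spanned more than 3 log2 units, with pool b lowest (6.74 ± 1.01, adjusted p = 0.00599). The exceptions were HSP90AB1, a constitutive chaperone, and HSPA5, the chaperone of the endoplasmic reticulum, which fell by 1.02 ± 0.07 and 0.91 ± 0.25, and 1 member fell without 91 dpc pool a, b or c or adult pool a.

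MHC and interferon-response genes rose in 20 of 35 cases and fell in none (median 1.25; 19 and 1.17 without pool b). GBP1, a guanylate-binding protein, read 2.32, 4.35 and 3.16 at 91 dpc and 8.09, 7.85 and 8.09 in adults (4.73 ± 0.53, limma adjusted p = 0.00236). ISG15, a ubiquitin-like protein induced by interferon, rose by 3.95 ± 0.44, and PSMB8, an immunoproteasome subunit, by 2.82 ± 0.35. MX2, an antiviral GTPase, read 6.81, 3.92 and 6.18 in adults and was at background in every fetal pool, at least 9.69-fold higher (adjusted p = 0.0245; 0.0538 to 0.079 without any 1 pool other than adult pool b, and 0.00134 without that pool). Immune cell markers rose in 6 of 22 cases and fell in 3, near the background share. PTPRC, the CD45 antigen of leukocytes, rose from 2.40, 2.57 and 2.51 to 5.26, 6.37 and 6.34 (3.50 ± 0.33), while MRC1, the mannose receptor of resident macrophages, fell by 1.81 ± 0.30. Without adult pool a 3 immune markers rose, and without 91 dpc pool c 1 fell. Averaged over the 22 markers, log2 intensity lay between 4.76 and 4.87 in the fetal pools and between 5.31 and 5.47 in the adult pools, and its part in the interferon genes was not tested.

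Among markers of the other tissue compartments, the median log2 change was -1.10 for endothelial and -0.81 for smooth muscle and pericyte markers. Of 15 endothelial markers 3 rose and 6 fell: MCAM, an adhesion molecule of vessels, fell by 3.61 ± 0.55 and CDH5, the junction cadherin, by 1.41 ± 0.25, while VWF, von Willebrand factor, rose from 7.55, 7.42 and 7.65 to 9.05, 8.93 and 9.05 (limma adjusted p = 0.000483, but 0.0884 as a mean over its probe sets). Without 91 dpc pool b 1 endothelial marker rose. Of 8 smooth muscle and pericyte markers 5 fell and 0 rose (1 rose without 91 dpc pool c). The summed list read 23849 to 27455 linear intensity units at 91 dpc and 9992 to 11772 in adults. ACTA2, which developing fibres share, weighs most in that sum, as the brightest member in every pool (13.84, 13.54 and 13.80 at 91 dpc). TAGLN (0.35 ± 0.11), CNN1 (0.51 ± 0.33) and MYLK, at background in all pools, did not pass. CALD1, caldesmon, fell by 1.60 ± 0.11 on its brightest probe set, while another of its probe sets changed by 0.01 (limma adjusted p = 0.954). RGS5, a pericyte marker, fell by 1.38 ± 0.22 and SMTN, smoothelin, by 0.82 ± 0.14.

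Adipocyte markers were mixed. Of 14 markers 6 rose and 0 fell (6 and 1 without pool b), a passing share of 42.9% that lies near the 45.5% of all genes. SCD, the desaturase of fat synthesis, rose from 7.38, 7.03 and 7.41 to 10.61, 10.72 and 10.48 (3.33 ± 0.14, limma adjusted p = 0.00015), although at 35 dpc its mean had been 10.65. PNPLA2, the fat-mobilising lipase that muscle also expresses, rose by 2.55 ± 0.25, AGPAT2 by 1.86 ± 0.22 and CIDEA, a lipid droplet protein, by 2.78 ± 0.43. CFD, adipsin, and LPL, lipoprotein lipase, which muscle also expresses, rose by 1.79 ± 0.10 and 1.75 ± 0.14. Among the 8 that did not pass, ADIPOQ, adiponectin, changed by -0.09 (adjusted p = 0.93), LEP, leptin, was at background in all 6 pools, and FABP4, the adipocyte fatty acid binding protein, changed by -0.45 ± 0.17 (adjusted p = 0.0969). FABP4 fell when adult pool b was left out (-0.60, adjusted p = 0.026). Among 11 neural and Schwann markers NCAM1 and S100B fell and 0 rose, and 5, 8 and 9 markers were above background in the 91 dpc pools against 4, 4 and 3 in adults. Of 6 erythroid markers 1 rose and 2 fell, a passing share of 50% that is also near that of all genes. HBB, beta globin, fell by 2.02 ± 0.20 and TFRC, the transferrin receptor, which many cells express, was at least 8.5-fold higher. AHSP, the chaperone of alpha globin, changed by -3.18 ± 0.76 and passed with all arrays (limma adjusted p = 0.0282). It did not pass without 91 dpc pool a, b or c (0.0903, 0.0765 and 0.0896).

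Beyond the lists, the largest rises that held with and without adult pool b were led by AGT, angiotensinogen, the precursor of angiotensin. It was at background in every fetal pool and read 9.30, 11.12 and 9.71 in adults, at least 206-fold higher (limma adjusted p = 0.000412). ITIH4, a plasma inhibitor chain, read 10.25, 12.14 and 10.32 in adults after 3.54, 4.46 and 2.37. Both are also liver genes, and in both the highest adult value was in pool b, but without it the changes were still 7.43 and 6.83. LOC100153598 read 8.23, 8.21 and 8.74 and then 14.80, 14.92 and 14.96, with no such excess in pool b, and lies next to ITIH4 and SFMBT1 on chromosome 13 of Sscrofa11.1. BPGM, the enzyme that makes bisphosphoglycerate, rose from 4.02, 4.92 and 4.70 to 11.51, 11.51 and 11.29 (6.89 ± 0.26). LDHD, the D-lactate dehydrogenase of mitochondria, was at least 83.7-fold higher, CST6, a cystatin, at least 92.3-fold, DEFB1, a beta-defensin, at least 97.1-fold and PON3, a paraoxonase, at least 79.3-fold. All 4 were at background in every fetal pool, and DEFB1 was lowest in adult pool b at 7.76.

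The largest falls outside the lists included membrane proteins. IGSF1, an immunoglobulin-superfamily membrane protein, read 11.51, 11.53 and 11.57 and then 2.21, 5.12 and 2.21, so the only adult signal was in pool b (-8.36 ± 0.87; -9.33 without that pool). CALCR, the calcitonin receptor, which marks quiescent satellite cells in rodents, fell from 9.34, 9.16 and 9.11 to 2.11, 2.43 and 2.11 (-6.99 ± 0.13, limma adjusted p = 2.68e-05). Its Pietrain means at 35 and 63 dpc were 4.29 and 6.01, so 91 dpc was the highest of the 4 stages. EVA1B fell from 9.36, 9.19 and 9.78 to 2.17, 2.65 and 2.52, with only adult pool b above background, and GSTM3, a glutathione transferase, was at least 70.5-fold lower. LOC100519808, beside the GIMAP8 gene on chromosome 18, fell by 7.99 ± 0.39. LOC100523107 changed by -6.46 ± 1.28 with adult values of 2.21, 2.36 and 6.59 (adjusted p = 0.0151), and without 91 dpc pool a, b or c it missed the threshold (0.0553, 0.053 and 0.0544).

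German Landrace went through the same step, which allowed the difference between the breeds to be tested. That test of the changes from 91 dpc to adulthood, fitted to 12 arrays, passed in limma for 80 of 23999 probe sets (0.333%), 40 in each direction (0.167%), and 2604 had an unadjusted p under 0.05. Of the 33 passing probe sets with 1 gene symbol, the step itself passed in both breeds for 16, 13 of them in the same direction, in Pietrain alone for 14 and in German Landrace alone for 3. The count was 151 without Pietrain adult pool b, 144 without adult pool a, and 42 and 44 without Pietrain 91 dpc pools a and b. It was 37, 38 and 141 without German Landrace 91 dpc pools a, b and c, and 122 without German Landrace adult pool c. ST3GAL3, a sialyltransferase, differed most: it fell in Pietrain from 4.04, 3.39 and 4.88 to background and rose in German Landrace from 2.28, 3.09 and 2.16 to 6.02, 6.49 and 5.88 (difference of -5.31 ± 0.53, limma adjusted p = 0.00526). MYBL2, a cell cycle transcription factor, fell less in Pietrain, where the adult pools read 5.45, 5.76 and 5.15, than in German Landrace, where all 3 were at background (3.48, adjusted p = 0.00285). CCL19, a chemokine that attracts lymphocytes, read 6.60, 4.95 and 5.58 in the adult Pietrain pools and was at background at 91 dpc and in both German Landrace groups (3.64, adjusted p = 0.021). Its adjusted p was 0.0598 and 0.0533 without German Landrace 91 dpc pools a and b, and 0.0584 and 0.0572 without those of Pietrain. ACTN1, the non-muscle alpha-actinin, differed by 4.27 (adjusted p = 0.0145, but 0.194 in the fit of all 24 arrays); here the breeds were apart at 91 dpc, with 3.83, 4.34 and 4.18 in Pietrain and 7.03, 7.70 and 8.27 in German Landrace.

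**Figure D4:**
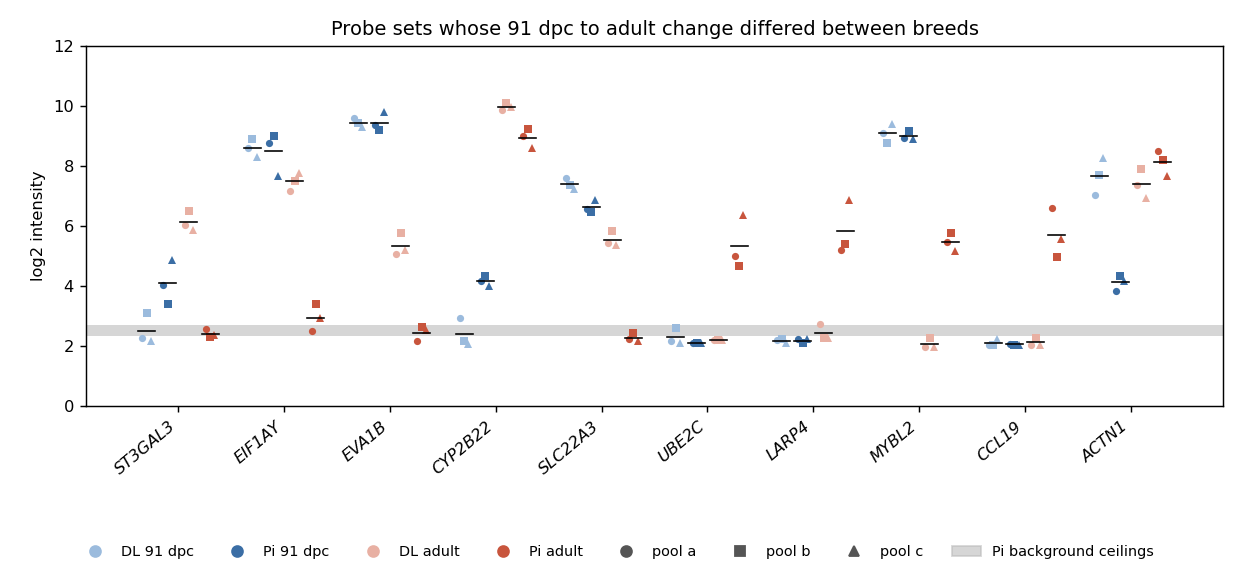
Log2 intensity of the 10 probe sets with the largest passing breed differences in the change from 91 dpc to adult, in each pool (pale blue and blue 91 dpc of DL and Pi, pale red and red adults of DL and Pi; shapes mark pools; black bars mark group means; the grey band spans the background ceilings of the Pi arrays). ST3GAL3 moves in opposite directions, ACTN1 differs at 91 dpc, and the UBE2C probe set drawn is the dimmer of that gene's 2.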

How the data were processed

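The authors deposited 1 table of log2 intensities per probe set and array, for 24123 probe sets and 24 arrays. Per the labels, TRI Reagent, DNaseI and RNeasy columns were used to prepare RNA, of which 500 ng were labelled as biotinylated cRNA. GCOS 1.1.1 is listed in the submitters' processing notes, and how probes were summarised and background was corrected is not stated there. The log base was inferred from the range of values. All sorted columns are identical, so the table had been quantile-normalised across arrays, and it cannot show a change in total mRNA. No sequences were used here.

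The 124 Affymetrix controls were left out. The array annotation gave 1 symbol for 10069 probe sets, several for 198 and none for 13732; of 2261 genes with more than 1 probe set, 75 had probe sets passing in opposite directions. The brightest probe set over the 6 arrays stood for a gene. limma 3.58.1 in R 4.3.3 was fitted to the 6 Pietrain arrays (4 residual degrees of freedom), and to 12 arrays for the difference between breeds (8 residual degrees of freedom). Tests were two-sided with Benjamini-Hochberg adjustment. The fit was tested on simulated data; where each probe set kept its own spread in each group, false calls exceeded the nominal rate. Where every pool of a group was at or below its array's background ceiling, the fold was computed against the ceilings and is a lower bound. The number of arrays limits the precision. Standard errors follow ±, unless SD is written.

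The members and the 26 gene lists were chosen with earlier results of these data known. Named genes were the 12 largest rises and 12 largest falls that passed with and without adult pool b and did not overlap, the 4 largest changes of each list and its exceptions, a panel of muscle genes, the 5 largest breed differences each way, and the genes furthest apart in adult pool b. RYR3, CTSB, ADIPOQ, LEP, CFD, LPL, PYGL, ALDOC, RPS12, MYL1, MYLPF, TPM1, TAGLN, CNN1, MYLK and the genes of the closing section, MT1A included, were named after their values were seen. The sources do not say whether pool letters pair the samples. Deviations of same-lettered pools from their group means correlated across probe sets at 0.03, -0.01 and 0.00. Whether a letter stands for a shared step of handling was not tested. Figures were drawn with matplotlib 3.10.9.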

Additional observations from a re-analysis of the deposited data

Results flagged for a closer look

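The change from 91 dpc to adulthood differed between the breeds, by limma's interaction test on 12 arrays, for the following 10 probe sets. Each value is the Pietrain log2 change minus the German Landrace log2 change. ST3GAL3 (-5.31) fell in Pietrain and rose in German Landrace. EIF1AY (-4.42) read 2.49 to 3.41 in the adult Pietrain pools and 7.18 to 9.21 in the other 21 pools. EVA1B (-2.90) and SLC22A3, an organic cation transporter (-2.50), fell in both breeds and further in Pietrain. CYP2B22, a cytochrome P450 (-2.80), rose in both and less in Pietrain. MYBL2 (3.48) fell in both and less in Pietrain. The dimmer UBE2C probe set (3.34), the RNA-binding protein gene LARP4 (3.39) and CCL19 (3.64) rose from background in Pietrain, while their German Landrace changes were -0.09, 0.25 and 0.01. ACTN1 (4.27) rose in Pietrain, from a 91 dpc level below that of German Landrace. All 10 had an adjusted p below 0.05 on 12 arrays, but UBE2C and LARP4 each missed it in 8 of the 12 fits that left out 1 array (0.0637 to 0.101 and 0.052 to 0.104), and CCL19 in 4.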

How the results depend on the processing

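The 8642 probe sets passing in Pietrain (4335 higher, 4307 lower) became 11466 in the fit of all 24 arrays and 8527 with array weights. They became 8785 with an intensity trend and robust prior and 8931 with dim probe sets left out. With the pool letter as a replicate block 6771 passed, although the sources name no pairing by letter. Leaving out 1 array at a time gave 6598 to 8300, with 3342 to 4259 higher and 3256 to 4097 lower. With the GAPDH 3'-minus-5' covariate 0 passed, 0 higher and 0 lower; the covariate's values did not overlap between the stages, and 2098 had an unadjusted p under 0.05. With poly-A control scaling, an alternative chosen after seeing the data, 18545 passed, 817 higher and 17728 lower. The 80 breed differences (40 and 40) became 638 with all 24 arrays (285 and 353), 40 with dim probe sets left out (19 and 21), 41 with hybridisation control scaling (23 and 18), and 1 with the replicate block (1 and 0), where 2445 had an unadjusted p under 0.05 and none of the 10 named differences passed. Leaving out 1 array gave 37 to 151 (16 to 81 higher, 17 to 79 lower). Of 119 named genes, the GAPDH covariate left 112 with the same direction and no call, and turned CIDEA (-0.99), PNPLA2 (-0.07), SLC27A1 (-0.89), PSMB8 (-0.38), TNNI2 (-0.43) and CKB (-0.13). Hybridisation control scaling turned TNNI2 (-0.10) and the skeletal muscle median (-0.03), and the mean over probe sets turned DES (0.28) and CAST (0.28). Leaving out dim probe sets ended the calls of CKM, TTN, TNNT3 and DES. For each turned result the cause was not tested. The signal over background limits probe sets near the ceilings, where fitted changes are not exact.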

Other observations

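Within the immediate early and stress list, clock genes and genes that glucocorticoids induce were among those that rose. These were picked after their values were seen. FKBP5, a chaperone partner of the glucocorticoid receptor, read up to 5.52 at 91 dpc and 9.68, 10.05 and 9.11 in adults (4.49 ± 0.38, limma adjusted p = 0.000975), although its Pietrain mean at 35 dpc had been 8.16. KLF15 rose by 2.97 ± 0.15, KLF9 by 2.93 ± 0.48 and TSC22D3 by 1.61. Of the clock genes ARNTL, DBP, PER1, CRY2 and BHLHE40 rose by 1.72, 1.98, 1.28, 1.76 and 2.44, ARNTL and DBP from fetal values of 5.13 to 5.89 and 7.02 to 7.87. The sources do not give the hour of sampling.

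MT1A, a metallothionein, was at background in all fetal pools and in adult pool c, at 2.14, and read 8.84 and 10.84 in adult pools a and b. Its change did not pass (adjusted p = 0.159).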
